A study of Mus musculus with 12 samples.

Results

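The histone cluster genes of the mouse are described here in the cells of the paw epidermis. All genes of the count files whose symbols start with Hist1h, Hist2h, Hist3h or Hist4 were taken, which gave 67 of the 32285 features. The members were chosen by symbol, with no measured value in the rule, but the family was taken up with results of these libraries known, in which Hist1h2ap led a cluster together with cell cycle genes. They comprised 6 genes of the linker histone H1, 18 of H2A, 18 of H2B, 12 of H3 and 13 of H4. On GRCm38, 54 of them lay on chromosome 13, between positions 21715763 and 23934851, and 10 on chromosome 3, between 96219865 and 96270132. The other genes were 2 on chromosome 11 and 1 on chromosome 6.

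Cells of the hind paw epidermis of 12 wild-type C57BL/6J mice were sequenced in droplets with a 3′ kit, with 1 library for each mouse. The mice began a regular diet (RD, 11% fat) or a high-fat diet (HFD, 42% fat) at 6 to 8 weeks of age, stayed on it for 10 weeks and were 16 to 18 weeks old when the skin was taken. Each diet was fed to 3 males and 3 females, none of them treated with a drug. Each captured transcript carried a unique molecular identifier (UMI), and the files held UMI counts per gene and barcode.

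Between 134449247 and 194673581 UMIs were counted per library, and 62147 male and 64228 female cells passed the limits on genes and mitochondrial UMIs. Males and females were clustered apart, without the histone cluster genes among the clustering genes. A cluster was called "X-like" from its markers. The S-phase-like clusters had 18 (male) and 19 (female) of 19 S-phase markers above the other cells, and the G2/M-like clusters had 20 of 20 G2/M markers. These were called cycling keratinocyte-like cells (9283 male, 11478 female), and the basal-like, suprabasal-like, terminally differentiated-like and migratory-like clusters were called resting (40334 male, 40478 female). Clusters that no marker list named, 10994 male and 9825 female cells, entered neither class. By a rule for single cells, at least 3 UMIs of S-phase or G2/M markers after thinning to 2000 UMIs, 6.07 to 8.42% (male) and 7.45 to 11.2% (female) of the resting cells of a library were cycling, with the highest median share among the basal-like ones (15.1 to 16.8% and 11.1 to 20.3%). Langerhans cell-like (LC-like) cells, without those that carried keratinocyte transcripts, numbered 1007 resting and 52 cycling in males and 1770 and 40 in females, and T cell-like cells 219 and 331. Any 2 libraries shared between 15 and 70 barcodes, at most 0.564% of the smaller library. According to the file headers, male libraries were counted with Cell Ranger 6.1.0 and female libraries with 7.2.0, so that sex, counting software and library batch cannot be told apart.

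Histones wrap DNA into nucleosomes, and a cell must double its stock of them while it copies its genome. The mRNAs of most genes in these clusters are made for S phase and end, unlike other mRNAs, in a conserved stem-loop without a poly(A) tail. Some of the genes also give polyadenylated transcripts, in cells that have left the cycle among others, and an assay that primes on poly(A) captures these or such tails as are present. The levels below are therefore those of transcripts that such priming captured, not of all histone mRNA.

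The stem-loop was searched in the transcript models of GENCODE M21 (GRCm38), as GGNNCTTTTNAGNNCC on the transcript strand with all 6 base pairs of the stem formed. It was found in the model of 43 of the 67 members. With every transcript of a gene counted, 49 of all 21901 coding genes held it (0.224%), 44 of them members, because Hist1h2bp held it in another transcript than the model used here. The genes outside the clusters that held it were H2afx, H2bfm, Nova2, Syncrip and Trim17. Trim17 overlaps the member Hist3h2a on the same strand, and whether its loop is that of Hist3h2a was not tested. Of 6 distinct loops, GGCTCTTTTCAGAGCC stood in 25 members, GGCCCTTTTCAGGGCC in 7 and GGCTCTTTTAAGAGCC in 6. The windows of some members that the results turn on are shown so that the loop (capitals) and its flanks can be compared. Hist1h2ap is shown to the end of its model, 3 bases past the loop, and Hist1h4d and Hist1h4i show the loops of H4 genes.
Hist1h1e (H1): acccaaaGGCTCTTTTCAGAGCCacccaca
Hist1h2ap (H2A): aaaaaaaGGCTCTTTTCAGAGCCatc
Hist3h2a (H2A): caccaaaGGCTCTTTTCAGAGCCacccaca
Hist1h3c (H3): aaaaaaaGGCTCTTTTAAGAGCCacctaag
Hist1h4d (H4): aaccaaaGGCCCTTTTCAGGGCCactacct
Hist1h4i (H4): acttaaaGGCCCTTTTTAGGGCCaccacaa

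The models fell into 4 kinds. Of the 43 members with a loop, 18 ended within 50 bases of it, and 25 ran on further. A further 17 members had no loop and under 50 bases after the stop codon. The other 7 had no loop and a longer 3′ untranslated region (UTR). Where a loop was found, it began 21 to 58 bases after the stop codon. A model with a short 3′ UTR can therefore end before a loop, and the genome past its end was not read. For the 17 members, no loop or signal means none within the model. The signal AATAAA stood in the last 50 bases of 14 members, against 40.5% of all 58797 coding transcripts. Promoters (250 bases before to 50 after the start, RefSeq, GRCm38.p6) were matched for 62 members. On both strands, 85.5% of them held CCAAT and 56.5% TATAAA, against 41.1% and 15.7% of the genes of the table. CCAAT stood in every matched promoter of H1, H2A, H2B and H3 genes but in only 3 of 12 H4 promoters. The 250 bases before the starts of Hist1h1b (chr13:21780626-21780875, minus strand) and Hist1h4i (chr13:22041363-22041612, minus strand) show this contrast, with CCAAT, its complement ATTGG and TATAAA in capitals.
Hist1h1b: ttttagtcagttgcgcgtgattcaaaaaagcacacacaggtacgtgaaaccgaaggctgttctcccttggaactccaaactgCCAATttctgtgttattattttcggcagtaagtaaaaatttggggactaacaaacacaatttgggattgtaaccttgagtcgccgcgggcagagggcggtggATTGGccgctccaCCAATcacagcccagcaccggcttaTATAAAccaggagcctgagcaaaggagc
Hist1h4i: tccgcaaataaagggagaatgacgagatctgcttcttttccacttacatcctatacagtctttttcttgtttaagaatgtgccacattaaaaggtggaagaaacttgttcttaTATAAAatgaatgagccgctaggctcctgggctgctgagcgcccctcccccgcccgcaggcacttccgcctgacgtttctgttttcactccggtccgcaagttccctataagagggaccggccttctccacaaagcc

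To ask where the captured histone transcripts were, the UMIs of all 67 genes were summed for each cell class and library and set against all UMIs of that class (CPM, UMIs per 1000000 UMIs; a UMI counts 1 transcript of any length, so levels were not divided by length). Such a sum does not tell more transcripts per cell from more cells that hold any. In males, the members held 4016 CPM in cycling keratinocyte-like cells (6 libraries, 3193 to 4415) and 896 CPM in resting ones (649 to 1066). In females the same sums were 1097 CPM (881 to 1319) and 276 CPM (259 to 301). In each sex the lowest cycling sum lay well above the highest resting sum. With the rule for single cells the sums were 3696 and 867 CPM in males and 951 and 279 CPM in females.

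Among the cycling cells, the G2/M-like clusters held more than the S-phase-like clusters. Male G2/M-like sums were between 4601 and 6052 CPM and male S-phase-like sums between 2400 and 2971 CPM. Female sums ran from 1065 to 1694 CPM in G2/M-like and from 386 to 561 CPM in S-phase-like cells. The ranges did not overlap in either sex, and 56 of the 59 members with at least 50 UMIs in both sexes were higher in G2/M-like cells in both, against 46.8% of 14939 genes. The G2/M-like clusters also carried S-phase markers. In females, the mean log2 fold of these markers was 1.9704 in the larger G2/M-like cluster (7720 cells) and 1.7983 in the S-phase-like cluster. In males it was 1.5035 in the G2/M-like and 1.9646 in the S-phase-like cluster. The cluster names therefore do not separate the phases cleanly. In which phase the captured histone transcripts were highest was not tested.

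The resting clusters also differed. In males the mean was highest in migratory-like cells, 1476 CPM (1164 to 1855), followed by 1011 CPM in basal-like, 819 CPM in suprabasal-like and 722 CPM in terminally differentiated-like cells. In females it was lowest in basal-like cells, 244 CPM, and stood at 286 CPM in suprabasal-like, 302 CPM in migratory-like (284 to 331) and 384 CPM in terminally differentiated-like cells. The ranges of the basal-like, suprabasal-like and terminally differentiated-like classes overlapped in males, whereas the female terminally differentiated-like libraries (342 to 432 CPM) lay above those of every other resting class (basal-like 225 to 270, suprabasal-like 262 to 319). A basal-like cluster of each sex and a suprabasal-like cluster of the males had 1 marker of another resting class and 0 of their own among their 10 leading genes. Another female basal-like cluster, of 3351 cells, had 2 basal markers and 2 S-phase markers among them. Without the former 3 clusters the means were 1047 CPM in male basal-like, 792 CPM in male suprabasal-like and 242 CPM in female basal-like cells. This left the order of the classes as it was. The migratory-like classes of the sexes were not made up alike. In males, 2671 of the 4578 cells came from a cluster with Lgr5 and Lhx2 among its 10 leading genes. It had 0 migratory markers among those 10, and basal markers were its second list. A female cluster with Lgr5 and Lhx2 among its leading genes, of 1822 cells, was named basal-like. Migratory-like levels can therefore not be compared between the sexes. The resting classes also held different shares of cells that were cycling by the rule for single cells. In male libraries these were 13.2 to 19.4% of migratory-like, 0.45 to 0.99% of suprabasal-like and 1.34 to 3.29% of terminally differentiated-like cells. In female libraries they were 3.96 to 11.5%, 2.12 to 3.57% and 2.74 to 10.4%. Their part in the order of the classes was not tested.

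LC-like cells, the antigen-presenting cells of the epidermis, contained a resting and a cycling subset. The resting subset held 1438 CPM in males (980 to 1962) and 199 CPM in females (187 to 209). The cycling subset, 52 male and 40 female cells, held 7254 CPM (2018 to 12156) and 1378 CPM (1146 to 1695). The lowest cycling value lay above the highest resting value in each sex, although each library's cycling LC-like cells were 3 to 13 in number.

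T cell-like sums were 1365 CPM in males (717 to 1917) and 499 CPM in females (287 to 893), but these sums also held keratin transcripts. Krt14, a basal keratin, stood at 79.2% of the resting keratinocyte-like level in the male T cell-like sums and at 45.0% in the female ones, and at 27.1% and 6.94% after likely doublets had been removed. Keratins of the suprabasal layers were further below that level, with Krt10 at 6.25% and 19.1% and Krt1 at 12.1% and 26.7%. In resting LC-like cells Krt14 stood at 3.10% and 1.12%. The part of keratinocyte RNA in the T cell-like values was not tested.

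**Figure D1:**
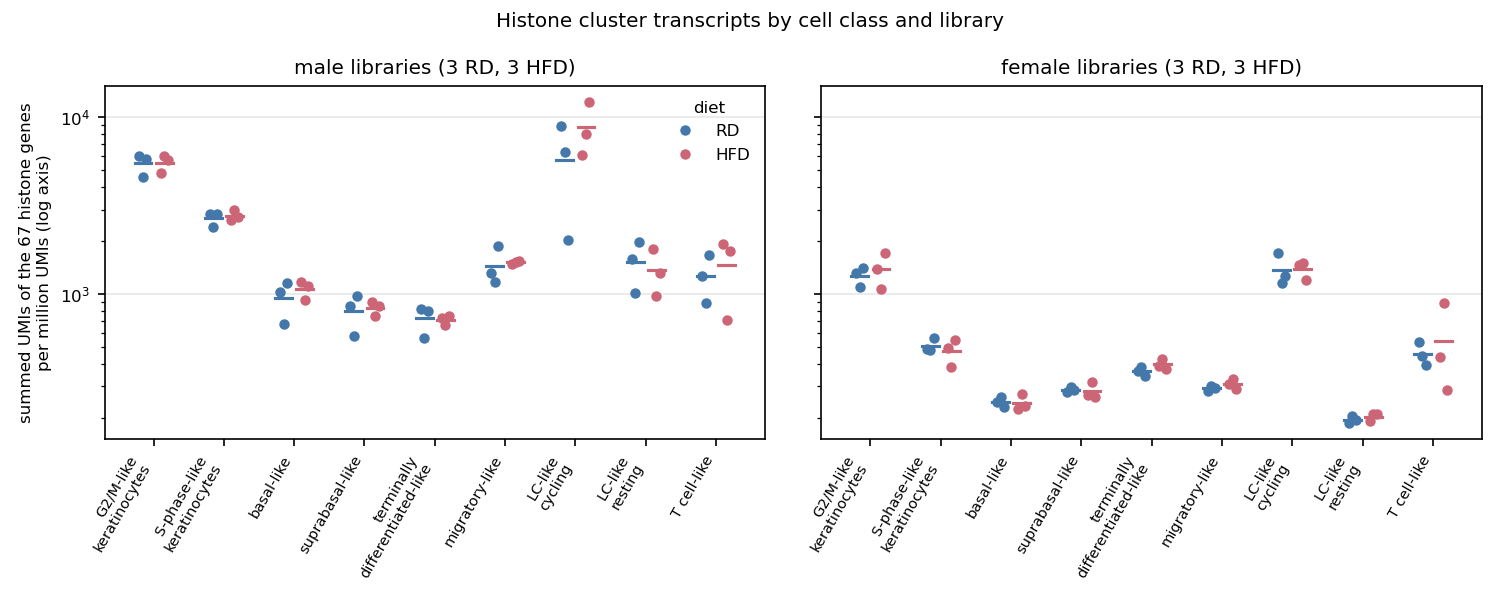
Summed level of the 67 histone genes (CPM, log axis) in each cell class, with 1 point per library, RD and HFD side by side and the mean as a bar. G2/M-like keratinocytes (4601 to 6052 CPM in males) and cycling LC-like cells stand above the resting classes in both sexes, and the diets overlap in each class.

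Single cells gave the same picture when each was thinned to 2000 UMIs. A cycling keratinocyte-like cell held on average 7.39 to 9.66 member UMIs in the male libraries and 1.86 to 2.62 in the female ones. A resting one held 1.34 to 2.25 and 0.520 to 0.595. Hist1h2ap alone was seen in 45.4 to 57.8% of thinned male cycling cells against 3.18 to 10.3% of resting ones. In females the shares were 8.15 to 33.1% and 0.270 to 1.49%. Without thinning they were 66.2 to 81.9% against 8.68 to 35.9% in males (median depths of 7308 to 14834 and 6954 to 16624 UMIs per cell) and 36.5 to 61.1% against 1.26 to 6.90% in females (10704 to 16449 and 8333 to 11495). In female resting LC-like cells, 0 to 0.510% of thinned and 0 to 2.27% of unthinned cells had a Hist1h2ap UMI, at median depths of 5383 to 7327 UMIs.

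Of the 67 members, 62 had UMIs in all 12 libraries and 3 in some of them (Hist1h2bq, Hist1h4m and Hist2h2aa2), while Hist1h2aa and Hist1h2ba had none. The cycling to resting ratio was taken for the 59 with at least 50 UMIs in both sexes. It was above 5-fold in both sexes for 39 of them, against 2.22% of 14939 genes. It was above 1 in all 12 libraries for 52, against 43.8%, and under 2-fold in both sexes for 6, against 78.7%. The median ratio was 12.7 in males and 10.4 in females, against 1.31 and 1.17 for all genes with as many UMIs. These figures are a description, because the link of the family to the cell cycle clusters was known when it was taken up. The 6 genes under 2-fold were Hist2h2be, Hist3h2a, Hist1h1c, Hist2h3c2, Hist1h2bc and Hist2h3c1. Nearest to the 5-fold line, Hist1h3d stood at 5.40 (males) and 5.45 (females) on its upper side and Hist1h4c at 4.88 and 4.99 on its lower side.

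**Figure D2:**
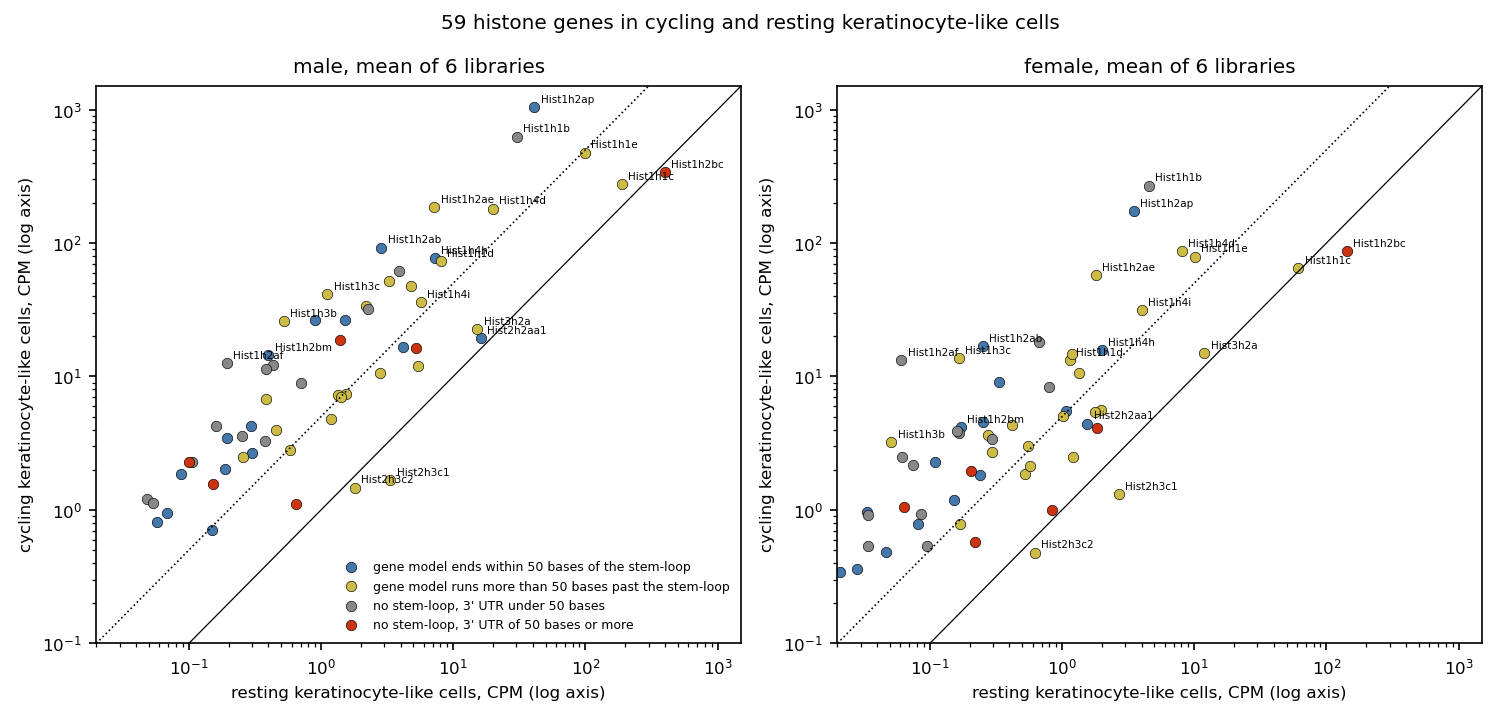
Mean CPM of 59 histone genes in resting (x) and cycling (y) keratinocyte-like cells, both on log axes, colored by the 3′ end of the gene model. The solid line marks equal levels and the dotted line 5-fold, and Hist1h2bc, Hist2h3c1 and Hist2h3c2 lie below the solid line.

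The linker histones H1 bind the DNA between nucleosomes, and the named members differed in where they were captured. Hist1h1b (chr13:21779883-21780625), the S-phase linker histone H1.5, was the second highest member in male and the highest in female cycling keratinocyte-like cells. It stood at 494, 675 and 557 CPM in male RD, 646, 782 and 609 in male HFD, 251, 241 and 232 in female RD and 271, 278 and 341 CPM in female HFD libraries. In resting keratinocyte-like cells its means were 30.1 CPM (males) and 4.52 CPM (females), which gave ratios of 20.8 and 59.5. Hist1h1b was thus a marker of the cycling cells in each library.

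Hist1h1c, which encodes H1.2, differed less between the cells than Hist1h1b. Its means were 276 CPM in cycling and 188 CPM in resting male cells, and 65.0 and 61.4 CPM in female cells. It was higher in cycling cells in 6 of 6 male but only in 3 of 6 female libraries. In resting LC-like cells it stood at 299 CPM in males, second to Hist1h2bc, and at 26.8 CPM in females.

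Hist1h1e, which encodes H1.4, lay between these. It stood at 476 CPM in cycling and 99.1 CPM in resting male cells, and at 79.1 and 10.1 CPM in female cells. Its model overlaps Hist1h2be and Gm11398 on the same strand, so that reads of these genes cannot be told apart where they overlap. Hist1h1d, which encodes H1.3, was at 73.0 and 8.07 CPM in males and at 13.3 and 1.14 CPM in females. Of the 5 H1 genes ranked, 3 were above 5-fold in both sexes.

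H2A and H2B form the dimers at the outside of the nucleosome, and the H2A genes included the member with the highest level in males and the one with the highest ratio. Hist1h2ap was at 1309, 596 and 1481 CPM in the cycling cells of male RD and at 621, 1005 and 1255 CPM in those of male HFD libraries. In females it was at 188, 62.1 and 300 CPM on RD and at 195, 44.9 and 247 CPM on HFD. Libraries of 1 group differed more than 2-fold, and the diets overlapped. Only 7.60% of its stretches of 90 bases were found in no other transcript, and 0.0% of those at the end of its model. Its reads and those of near-identical copies could therefore be split or dropped in counting. Under 50% of the stretches were unique in 26 of the 67 members.

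Hist1h2af had the highest ratio of cycling to resting cells, 64.5 in males and 218 in females, at 12.6 and 13.3 CPM in cycling cells. Hist1h2ab stood at 92.4 and 16.9 CPM there, with ratios of 32.4 and 66.7, and Hist1h2ae at 187 and 57.2 CPM, with ratios of 26.0 and 31.6. Only 46.4% (Hist1h2ab) and 33.5% (Hist1h2af) of their stretches of 90 bases were found in no other transcript, so their separate values are uncertain. Of 15 ranked H2A genes, 11 were above 5-fold in both sexes.

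2 H2A genes outside the chromosome 13 cluster did not follow. Hist3h2a (chr11:58954685-58956830), whose model runs 1643 bases past its loop and ends with an AATAAA signal, stood at 22.8 CPM in cycling and 15.2 CPM in resting male cells, and at 14.9 and 11.9 CPM in female cells. It was higher in resting LC-like cells (46.9 and 27.4 CPM) than in either keratinocyte class. Its model overlaps Trim17 on the same strand, and reads there cannot be told apart. Hist2h2aa1 stood at 19.4 and 16.1 CPM in males and at 4.43 and 1.56 CPM in females. Only 4.00% of its stretches were found nowhere else, however, and 0.0% of those at the end of its model.

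Among the H2B genes, Hist1h2bc (chr13:23684199-23692908, 2 exons) was the member with the highest level in resting cells. It stood at 411, 270 and 463 CPM in resting keratinocyte-like cells of male RD, at 459, 383 and 405 in male HFD, at 135, 169 and 136 in female RD and at 132, 152 and 132 CPM in female HFD libraries. In cycling cells its means were lower, 339 CPM in males and 86.4 CPM in females, and it was lower in cycling than in resting cells in all 12 libraries. Its model holds no stem-loop and has 742 bases after the stop codon.

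Hist1h2bc was also the highest member in resting LC-like cells, at 640 CPM in males and 93.2 CPM in females. Within the resting keratinocytes it was higher in suprabasal-like (433 and 172 CPM) than in basal-like cells (284 and 93.7 CPM), and the female ranges did not overlap (154 to 196 and 77.7 to 119 CPM). Without the clusters led by markers of another class the means were 416 and 172 CPM against 294 and 92.7 CPM. Most other H2B genes followed the cycling cells. Hist1h2bm stood at 14.5 and 4.20 CPM in cycling cells with ratios of 36.3 and 24.5, and 10 of 16 ranked H2B genes were above 5-fold in both sexes.

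H3 and H4 form the core tetramer of the nucleosome. Hist1h3b and Hist1h3c had ratios of 49.4 and 36.9 in males and 63.1 and 82.7 in females, at 25.9 and 41.2 CPM (males) and 3.22 and 13.7 CPM (females) in cycling cells. Only 42.6% of the stretches of Hist1h3b were found in no other transcript, and of Hist2h3c2 only 38.0%, so their separate values are uncertain. At the end of the model the share was 38.3% for Hist1h3b and 100% for Hist2h3c2. The H3 genes of the chromosome 3 cluster named here, taken for their low ratios, had lower means in cycling than in resting cells. Hist2h3c1 stood at 1.67 CPM in cycling and 3.34 CPM in resting male cells and at 1.31 and 2.68 CPM in female cells, and was lower in cycling cells in all 12 libraries. Hist2h3c2 stood at 1.47 and 1.80 CPM in males and at 0.479 and 0.622 CPM in females, but was not lower in cycling cells in every library. Of 11 ranked H3 genes, 8 were above 5-fold in both sexes.

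Of the H4 genes, which encode a nearly invariant protein, Hist1h4d was the highest in cycling cells, with 181 CPM in males and 87.4 CPM in females against 19.9 and 8.11 CPM in resting cells. Hist1h4h stood at 77.1 and 15.7 CPM in cycling and at 7.27 and 2.01 CPM in resting cells. Hist1h4i, whose promoter is printed above, stood at 36.2 and 31.4 CPM in cycling and at 5.72 and 4.00 CPM in resting cells, and its cycling level was 1.15 times as high in males as in females. Of 12 ranked H4 genes, 7 were above 5-fold in both sexes.

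The kind of 3′ end was not used in choosing the members, and the mixture of kinds differed between the classes. Members whose model ends near the loop made up 33.8% of the member CPM in the median male cycling library (23.9 to 40.4%) and 7.73% in the resting one (4.04 to 13.2%). In females they made up 23.5% (10.4 to 32.7%) and 3.67% (1.85 to 6.33%). Members without a loop and with a longer 3′ UTR, mostly Hist1h2bc, made up 9.40% (7.95 to 11.2%) in male cycling and 45.2% (42.5 to 48.2%) in male resting cells. The female values were 8.62% (6.83 to 11.9%) and 51.4% (51.0 to 59.3%). Neither share overlapped between cycling and resting cells in either sex. The share of members that end near the loop was mostly that of Hist1h2ap in cycling cells, 76.9% of it in the median male and 71.8% in the median female library. Hist1h2ap is also the member whose link to the cell cycle genes was known beforehand, and its reads are hard to tell from those of its copies. Without it the share was 9.67% (8.56 to 10.98%) in male cycling and 3.39% (2.29 to 7.08%) in male resting cells, and 7.79% (5.83 to 9.77%) and 2.42% (1.51 to 3.79%) in females.

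Gene by gene the difference was less sharp. The 16 ranked members that end near the loop had median cycling to resting ratios of 14.2 (males) and 14.6 (females), and the 24 that run on past it 5.86 and 6.65. The 13 without a loop and with under 50 bases after the stop had the highest medians, 20.998 and 24.1. Each of them was above 5-fold in both sexes. Their models can end before a loop, and a loop or signal past that end was not read. The 12 ranked members with AATAAA near the end had medians of 4.40 and 2.42, against 14.3 and 11.6 for the 47 without. The models are those of GENCODE M21, and the annotation used in counting is not given in the sources used here.

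**Figure D3:**
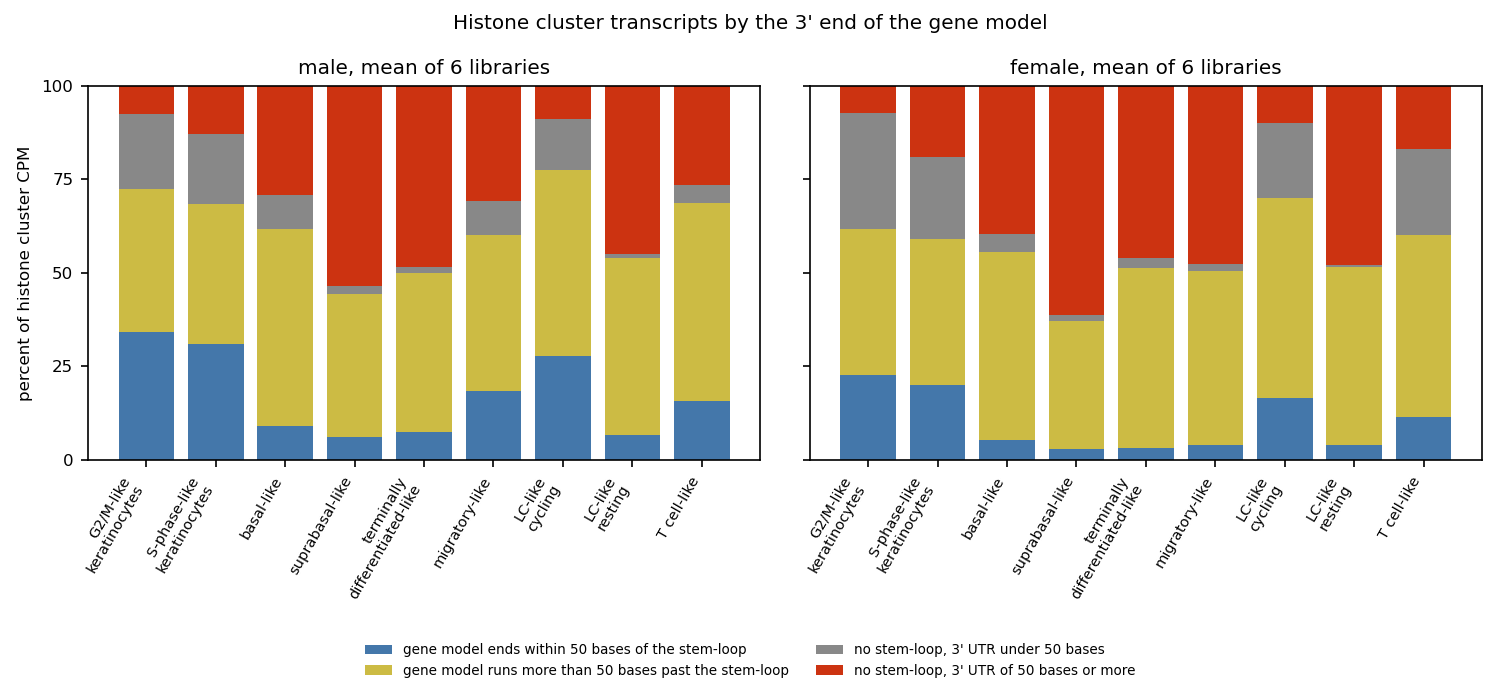
Percent of the summed histone cluster CPM (y) held by members of each kind of 3′ end in 9 cell classes (x), mean of 6 libraries per sex. The red part, mostly Hist1h2bc, is largest in suprabasal-like cells, and the blue part, members that end near the loop, is largest in G2/M-like cells.

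Histone levels varied more between libraries of 1 sex than those of other genes. In male cycling cells, the highest over the lowest of the 6 libraries had a median of 1.81 over the 31 members with a mean of at least 10 CPM, against 1.25 over 6930 other genes of that level. In females it was 1.58 over 17 members against 1.23 over 8027 genes. The largest member ratio in cycling cells was that of female Hist1h2ap, 6.67 between 44.9 and 300 CPM, and 0.324% of the other genes exceeded 3 there. In male resting cells the largest was that of Hist2h2aa1, 11.9 between 4.03 and 48.0 CPM. Both genes end near the loop, and both are hard to tell from their copies. Hist1h2ap was low in the same female libraries in both keratinocyte classes, RD replicate 2 (62.1 CPM in cycling and 1.69 CPM in resting cells) and HFD replicate 2 (44.9 and 1.04 CPM).

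The summed level was 3.66 times as high in male as in female cycling cells, and 3.25 times in resting keratinocyte-like, 7.86 times in LC-like and 2.74 times in T cell-like cells. Per gene, 55 of 59 ranked members were higher in males in cycling and 52 of 59 in resting cells, against 25.9% and 22.8% of 14939 genes. The ratio differed between members, from 0.56 for Hist1h2an and 0.95 for Hist1h2af to 9.68 for Hist1h2br in cycling cells. Only 16.1%, 33.5% and 0.2% of the stretches of 90 bases of these 3 genes were found in no other transcript, so their ratios are uncertain. Of 11 replacement variants, which are not members, 6 were higher in males in cycling and 5 in resting cells. H2afz stood at 2464 CPM in male and 2364 CPM in female cycling cells, and H3f3b at 5688 and 3243 CPM. Sex and the version of the counting software cannot be told apart in these ratios.

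Replacement variants are made outside S phase too, and most of their mRNAs are polyadenylated, although H2afx of this list held the stem-loop. Of the 11 genes, 10 were higher in cycling than in resting cells in each sex, with median ratios of 4.20 (males) and 3.22 (females). The highest, H3f3b (H3.3), stood at 5688 and 3243 CPM in cycling and 3230 and 1785 CPM in resting cells, and H3f3a at 1698 and 1773 against 1586 and 1593 CPM. The exception, H2afj, stood at 375 and 240 CPM in cycling and 676 and 412 CPM in resting cells. H2afz stood at 416 and 469 CPM in resting cells. Of 18 genes of histone supply and mRNA processing, 18 (males) and 17 (females) were higher in cycling cells, with median ratios of 2.59 and 2.24. Nasp, a histone chaperone, stood at 139 and 293 CPM in cycling cells, Rbbp7 at 140 and 157 CPM and Rbbp4 at 80.2 and 160 CPM. Slbp, which binds the stem-loop, stood at 59.3 and 127 CPM against 19.5 and 44.9 CPM in resting cells, and was named outside the rule for named genes.

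Whether the diet moved these genes was tested in each sex on the sums per library, with the quasi-likelihood test of edgeR and Benjamini-Hochberg adjustment over all genes tested. Nothing separates the mouse from its library, so the spread is that between 3 mice of a group. The share of cycling cells among the keratinocyte-like cells did not differ beyond that spread. Cells of the unnamed clusters were left out of it. It was 16.9% ± 1.63 (SD, n = 3) on HFD and 19.7% ± 2.86 (n = 3) on RD in males, and 23.0% ± 3.01 and 20.8% ± 3.26 in females. The two-sided exact permutation tests gave p = 0.2 and p = 0.3, where 0.1 is the smallest p that 3 against 3 allows. The cells left out included an unnamed male cluster of 1840 cells with the mitotic genes Ube2c and Plk1 among its 10 leading genes. It held 463, 586 and 264 of the 13756, 15193 and 8299 cells kept on RD. On HFD it held 70, 221 and 236 of 6226, 8790 and 9883 cells. By the rule for single cells, 186, 253 and 88 of its cells (RD) and 23, 74 and 79 (HFD) were cycling. Its part in the male share was not tested.

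In cycling keratinocyte-like cells the summed members stood at 4153 ± 341 CPM on HFD and 3880 ± 602 CPM on RD (SD, n = 3 each) in males and at 1137 ± 195 and 1057 ± 157 CPM in females. In resting cells they stood at 917 ± 83.8 and 876 ± 211 CPM in males and at 274 ± 23.6 and 278 ± 10.2 CPM in females. In LC-like cells the values were 1994 ± 596 and 1766 ± 380 CPM in males and 244 ± 20.97 and 234 ± 31.9 CPM in females. In each of these pairs the difference was smaller than the larger SD, and its sign changed when 1 of the libraries was left out.

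Markers of the cell cycle were measured in the same cycling keratinocyte-like sums, and their part in the differences below was not tested. The 19 S-phase markers together stood at 890 to 974 CPM on RD and 1045 to 1112 CPM on HFD in males, and at 1246 to 1337 and 1364 to 1566 CPM in females, without overlap in either sex. The 20 G2/M markers overlapped, with 3220 to 4219 and 3535 to 4108 CPM in males and 4072 to 4664 and 4273 to 5391 CPM in females.

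In male cycling cells, 0 of 59 members tested were called, and 0.0% of 12205 genes. Before adjustment, p was under 0.05 for 14 members and 857 genes. DESeq2 called 2 members (Hist1h1d and Hist1h1e) of the 35 to which it gave an adjusted p, and 0.34% of 7946 genes. The median log2 difference over the members was 0.03, and 34 of 59 were higher on HFD. Hist1h1e stood at 345, 396 and 426 CPM on RD and 581, 621 and 486 CPM on HFD, which do not overlap (log2 difference 0.56, SE 0.11, edgeR adjusted p = 0.203). Hist1h1d stood at 65.5, 55.6 and 64.0 CPM on RD and at 83.2, 87.2 and 82.6 CPM on HFD (0.47, SE 0.09, edgeR adjusted p = 0.173). Hist1h4i stood at 51.7, 32.6 and 45.1 CPM on RD and at 30.1, 28.0 and 29.6 CPM on HFD (-0.54, SE 0.15, edgeR adjusted p = 0.449). Hist1h4d stood at 156, 171 and 98.2 CPM on RD and at 232, 250 and 179 CPM on HFD (0.65, SE 0.19, edgeR adjusted p = 0.470). None of these 4 passed the threshold. Of the 59 members, 12 did not overlap between the diets, against 1536 of all 12205 genes tested (12.6%).

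In female cycling cells, 1 of 61 members was called, a share no higher than the 1.89% called of 14422 genes. The member called was Hist3h2a, which was higher on HFD. It stood at 11.0, 11.6 and 10.1 CPM on RD and at 19.4, 22.6 and 14.5 CPM on HFD, and all HFD libraries lay above all RD libraries. The log2 difference was 0.76 (SE 0.14, edgeR adjusted p = 0.0345). The S-phase markers were higher in the same 3 libraries, as given above. The difference was 0.84 in G2/M-like cells alone, where it passed, and 0.21 in S-phase-like cells alone, where it did not (edgeR adjusted p = 0.594). Without any 1 of the female RD libraries, or without female HFD replicate 1, the difference was between 0.70 and 0.83 and the edgeR adjusted p between 0.0868 and 0.143, so that the call rested on each of these libraries. With a per-cell rule for cycling cells it was 0.70 (edgeR adjusted p = 0.0555).

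In female cycling cells 6 of 61 members did not overlap between the diets, against 3496 of all 14422 genes tested (24.2%). Among these 6 members were Hist1h1c and Hist1h3c, which did not pass. Hist1h1c stood at 60.2, 53.9 and 48.7 CPM on RD and at 95.1, 61.0 and 71.2 CPM on HFD (0.47, SE 0.15, edgeR adjusted p = 0.126). Hist1h3c stood at 15.3, 13.3 and 17.8 CPM on RD and at 11.3, 11.6 and 12.9 CPM on HFD (-0.39, SE 0.11, edgeR adjusted p = 0.0949). Before adjustment, p was under 0.05 for 5 members and 2838 genes. DESeq2 called 3 members of 44, Hist3h2a, Hist1h1c and Hist1h1a, and 4.52% of 11905 genes.

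In male cycling cells Hist3h2a was at 21.3, 23.7 and 25.7 CPM on RD and at 24.5, 22.8 and 18.7 CPM on HFD (-0.08, SE 0.11, edgeR adjusted p = 0.936). In female resting cells it was at 11.2, 10.8 and 10.4 CPM on RD and 11.0, 17.7 and 10.4 CPM on HFD (0.19, SE 0.16, edgeR adjusted p = 0.531). The diet difference in cycling cells was 0.86 larger in females than in males on the log2 scale, which did not pass (SE 0.19, edgeR adjusted p = 0.139). Of 61 members, 0 were called in that test of diet and sex, against 0.0276% of 14483 genes. Before adjustment, p was under 0.05 for 11 members and 1382 genes. DESeq2 called Hist3h2a, 1 member of 40, and 0.672% of 10271 genes. Among the other genes of the 2 lists, Hirip3 (0.42, SE 0.08, edgeR adjusted p = 0.0394) and Asf1b (0.47, SE 0.08, edgeR adjusted p = 0.0280), histone chaperones or their partners, were called higher on HFD in female cycling cells, 2 of the 18 of their list against 1.89% of all genes. Both calls were lost without any 1 of the female RD libraries, without female HFD replicate 1 and without female HFD replicate 3 (edgeR adjusted p of 0.0729 to 0.161). Both genes were higher in cycling than in resting female cells (25.2-fold for Asf1b, 5.95-fold for Hirip3), and the S-phase markers did not overlap between the diets in these sums. No other list gene was called in any class.

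In resting keratinocyte-like cells no member was called by edgeR. Of 53 members tested in males, 6 had an unadjusted p under 0.05, where 0.0% of 14360 genes were called and 1140 had such a p, and DESeq2 called 1 member of 49 and 0.739% of 13800 genes. The diets did not overlap for 4 of the 53 members, against 2183 of all 14360 genes tested (15.2%). Hist1h1e was again higher on HFD, at 74.2, 78.1 and 99.1 CPM on RD and 124, 108 and 111 CPM on HFD (0.51, SE 0.11, edgeR adjusted p = 0.260), and was the member DESeq2 called. Hist2h2aa1 had the largest fitted difference (-1.79, SE 0.63, edgeR adjusted p = 0.544), with 22.1, 5.46 and 48.0 CPM on RD and 4.03, 5.45 and 11.6 CPM on HFD, which overlap.

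In females 0 of 45 members were called in resting cells, against 1.72% of 16588 genes. Before adjustment, p was under 0.05 for 3 members and 3417 genes. DESeq2 called 1 member of 28 and 8.5% of 13689 genes. The diets did not overlap for 3 of the 45 members, against 4390 of all 16588 genes tested (26.5%). Only 8 of the 45 were higher on HFD, and their median log2 difference was -0.18, against 0.01 over all genes. Hist1h4d, the member DESeq2 called, stood at 9.88, 7.40 and 10.0 CPM on RD and at 6.15, 7.91 and 7.26 CPM on HFD (-0.43, SE 0.12, edgeR adjusted p = 0.0971). In males it stood at 18.4, 20.6 and 11.5 CPM on RD and at 24.4, 24.0 and 20.6 CPM on HFD, where the highest RD and the lowest HFD value were alike (0.50, SE 0.19, edgeR adjusted p = 0.565). The test of diet and sex called 0 of 55 members, against 0.112% of 16909 genes. Before adjustment, p was under 0.05 for 3 members and 2532 genes. DESeq2 called 2 members of 34, Hist1h4d and Hist1h1e, and 4.44% of 12641 genes.

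**Figure D4:**
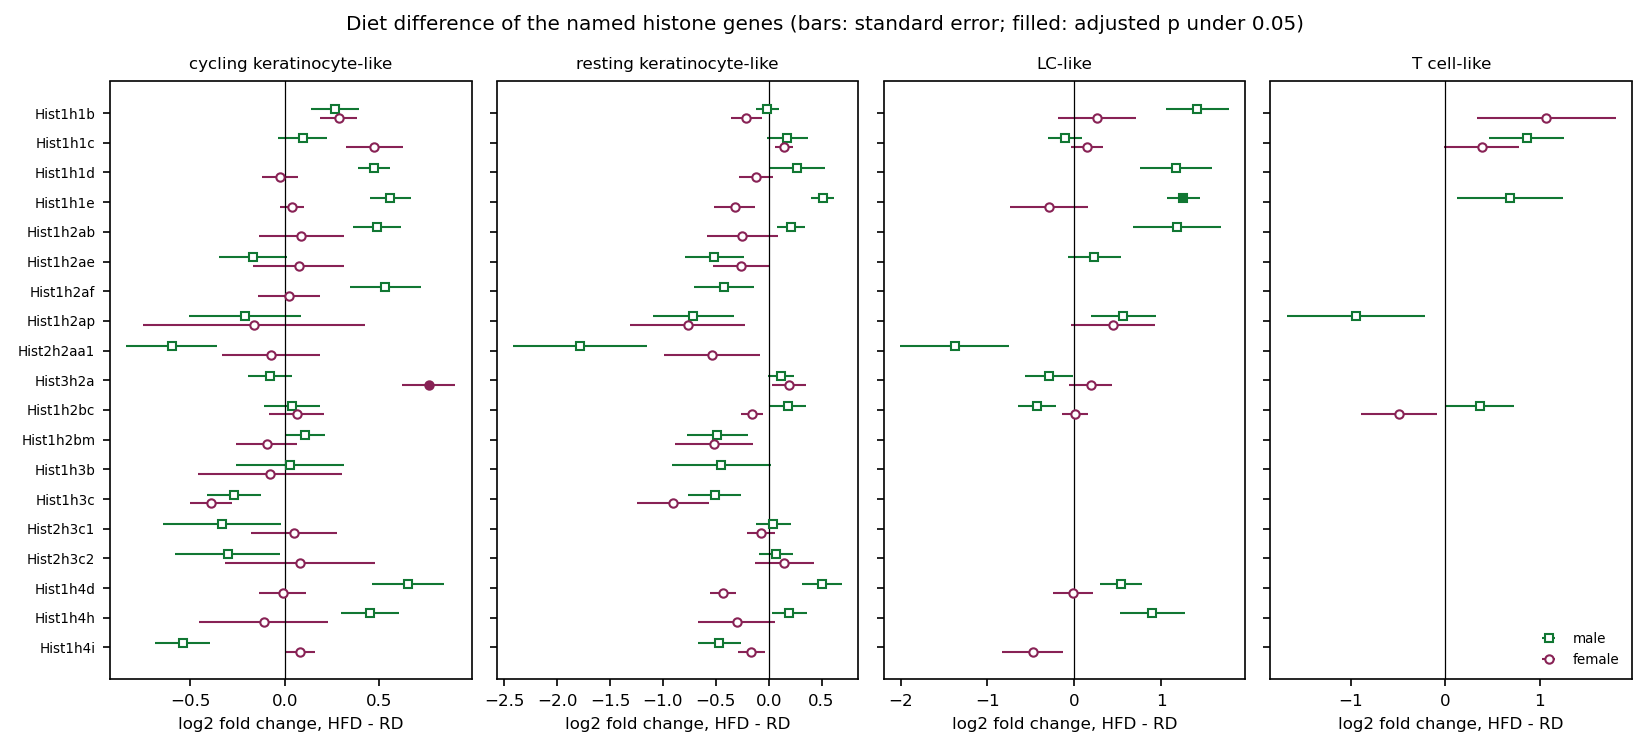
Log2 difference between HFD and RD (x, edgeR, bars are standard errors) of the 19 named histone genes (y) in 4 cell classes, males as squares and females as circles. Filled symbols passed an adjusted p of 0.05, and only Hist3h2a in female cycling keratinocyte-like cells and Hist1h1e in male LC-like cells are filled. LC-like cells that carried keratinocyte transcripts are left out, and with them Hist1h1e did not pass.

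In male LC-like cells, 1 of 13 members tested was called, against 0.187% of 5868 genes. LC-like cells that carried keratinocyte transcripts were left out of these sums, which departed from the plan, as given below. DESeq2 called 1 member of 5, the same one, and 0.568% of 2114 genes. Hist1h1e rose on HFD, from 118, 132 and 144 CPM on RD to 324, 209 and 409 CPM on HFD. All HFD libraries lay above all RD libraries, and the log2 difference was 1.26 (SE 0.19, edgeR adjusted p = 0.00648). The diets did not overlap for 2 of the 13 members, against 13.1% of all genes tested. Resting LC-like cells alone gave the same order, with 75.6, 82.6 and 131 CPM on RD and 276, 168 and 194 CPM on HFD.

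Markers of the cell cycle were measured in the same LC-like sums, and their part in the result was not tested. The 19 S-phase markers together stood between 217 and 262 CPM on RD and between 261 and 395 CPM on HFD, and the 20 G2/M markers between 389 and 510 and between 375 and 775 CPM. The diets overlapped in both lists, and male HFD replicate 3 was highest in both. In resting LC-like cells, where Hist1h1e did not overlap either, these markers did overlap, with 153 to 169 and 160 to 186 CPM for S phase and 206 to 224 and 190 to 220 CPM for G2/M.

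The call on Hist1h1e was lost without male RD replicate 3 (1.31, edgeR adjusted p = 0.0771). It was also lost when the LC-like cells that carried keratinocyte transcripts were added (0.99, edgeR adjusted p = 0.422). With them 0 of all genes were called, against 11 without them. The test had been planned on all LC-like cells, so leaving those cells out departed from the plan. The fit with them was added after the data had been seen. Of the other members tested there, Hist1h1b stood at 47.1, 32.6 and 6.40 CPM on RD and at 89.9, 45.4 and 108 CPM on HFD (1.42, SE 0.36, edgeR adjusted p = 0.161). Hist1h2bc stood at 782, 461 and 936 CPM on RD and at 713, 372 and 538 CPM on HFD (-0.43, SE 0.22, edgeR adjusted p = 0.655), which overlap. Of the 13 members, 9 were higher on HFD and 8 had an unadjusted p under 0.05, where 467 of all 5868 genes had. Their median log2 difference was 0.56, against 0.00 over all genes.

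In female LC-like cells, 0 of 8 members were called, against 1.08% of 9185 genes, and none of the 8 had an unadjusted p under 0.05, where 1154 genes had. DESeq2 called 0 of 4 members and 1.59% of 7048 genes, and the diets did not overlap for 0 of 8 members, against 18.0% of all genes tested. Hist1h1e was low there, at 8.55, 14.1 and 4.59 CPM on RD and 11.6, 4.76 and 3.27 CPM on HFD (-0.29, SE 0.45, edgeR adjusted p = 0.844). The difference between the sexes in the response of Hist1h1e was -1.48 (SE 0.50, edgeR adjusted p = 0.526). That test called 0 of 19 members and 0.0% of 8444 genes, with p under 0.05 before adjustment for 2 members and 605 genes and no call by DESeq2.

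**Figure D5:**
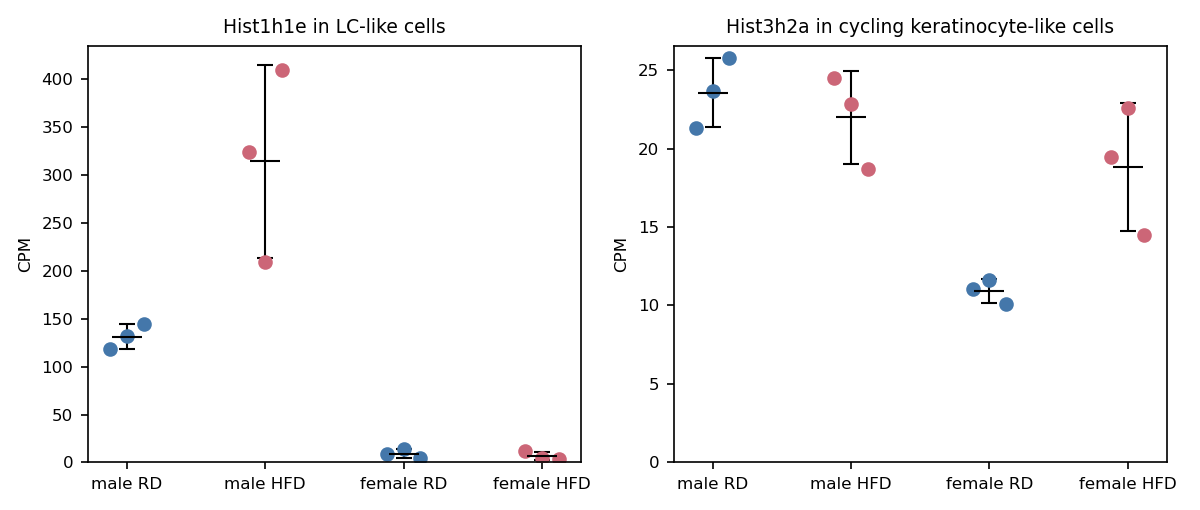
Level (CPM, linear axis from 0) of Hist1h1e in LC-like cells and Hist3h2a in cycling keratinocyte-like cells in each library, by sex and diet, with mean and SD of 3 libraries. Male HFD values of Hist1h1e (209 to 409 CPM) lie above the male RD values, and female HFD values of Hist3h2a (14.5 to 22.6 CPM) above the female RD values. LC-like cells that carried keratinocyte transcripts are left out.

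T cell-like sums held 50262 to 114310 UMIs per male and 135134 to 409902 per female library, and few members could be tested. Hist1h1b ranged from 5.62 to 286 CPM over the 6 female libraries. The highest was female HFD replicate 2, which also had the highest summed S-phase and G2/M markers (1036 and 2259 CPM) and fell to 87.1 CPM with likely doublets removed. None of 4 in males and 3 in females was called by edgeR or DESeq2, where edgeR called 0.0% of 1058 and 0.0% of 4353 genes and 32 and 316 genes had an unadjusted p under 0.05. DESeq2 called 0.0% and 0.115% of the genes, and 0 members were without overlap between the diets in either sex, against 6.43% and 11.8% of all genes tested. Hist1h1c stood at 199, 137 and 139 CPM on male RD and at 322, 166 and 379 CPM on male HFD (0.86, SE 0.39, edgeR adjusted p = 1.00), the 1 member with an unadjusted p under 0.05. The test of diet and sex called 0 of 6 members and 0.0% of 2762 genes, with 0 members and 132 genes at an unadjusted p under 0.05. At this depth 3 UMIs of a library stand for 7.32 to 59.7 CPM, and smaller differences were not detectable. This floor covers counting error only, and larger differences, such as that of Hist1h1c in males, could also go uncalled.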

How the data were processed

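Epidermal cells were captured with a 10x Genomics 3′ kit, and the authors deposited raw UMI counts per gene and barcode for each library, not normalized. The submitters' processing notes named Cell Ranger 7.2.0, Seurat 5.0.0 and the builds GRCm38 and mm10, while the file headers of the male libraries named Cell Ranger 6.1.0. Whether introns were counted is not given in the sources used here.

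Cells were kept from 200 (male) or 500 (female) up to 6000 genes, with mitochondrial UMIs of no more than 5%. Counts scaled to 10000 per cell gave 2000 variable genes without histone cluster genes, 10 principal components, 20 neighbors and clusters (leidenalg 0.10.2, Python 3.11.15). The resolution, 0.6, was the lowest, in steps of 0.1, at which both sexes had an S-phase cluster, a choice made after lower ones gave none. A name needed at least 3 markers with a log2 fold of at least 0.5 and a share of cells of at least 0.1. The S-phase and G2/M names instead needed at least 50% of the markers of their list. Clusters of low depth with fewer than 3 of their markers among the 10 leading genes were left unnamed. Doublets were kept, and an alternative removed the highest simulated scores, in proportion to the number of barcodes.

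Counts were summed per library and class and tested with edgeR 4.0.16 (quasi-likelihood, R 4.3.3, limma 3.58.1) within each sex and for diet by sex, with all genes adjusted together at 0.05. DESeq2 1.42.0 was an alternative, beside other normalizations and filters, a replicate block, other class rules (those on keratin-carrying LC-like cells and on clusters led by another class's markers were chosen after seeing the data) and leaving out each library. The LC-like tests had been planned on all LC-like cells, but the main fits left out those that carried keratinocyte transcripts. The tests were checked on simulated data. P-values measure the spread between libraries of 1 mouse each, and floors (3 UMIs) cover counting error only. Members named with values were the 10 highest in each of 4 classes, the 5 highest and 5 lowest ratios of cycling to resting cells, and members called in a diet test. Other members were named after their values had been seen, those next to the 5-fold line, those with few or no UMIs, those called by DESeq2 and those at the ends of the range of male to female ratios. The members and lists were chosen with earlier results of these data known.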

Additional observations from a re-analysis of the deposited data

How the results depend on the processing

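Of 349 alternatives over all results, 297 kept the direction and the side of the threshold or the size, 22 lost a call, 27 moved a count of members called, 3 moved another value, and 0 reversed the direction of a called gene. The 3 values were the shares of members that end near the loop, without Hist1h2ap. DESeq2 called 2 members (0.34% of all genes) in male and 3 (4.52%) in female cycling cells, and 1 (0.672%) in their diet by sex test. In resting cells it called 1 (0.739%) in males, 1 (8.5%) in females and 2 (4.44%) in the diet by sex test. Without a filter on low counts, 12 members (0.878% of all genes, male cycling), 4 (3.29%, female cycling), 8 (1.1%, cycling, diet by sex), 1 (0.233%, male resting), 2 (0.753%, resting, diet by sex), 4 (0.435%, male LC-like) and 1 (0.291%, LC-like, diet by sex) were called. Female cycling cells gave 0 members by the per-cell rule and 0 in S-phase-like cells alone. Over all alternatives, 1 to 792 of all genes were called in female cycling cells, against 273 in the main test. Male LC-like cells gave 0 members with the cells that carried keratinocyte transcripts, where 0 of all genes were called, against 11 in the main test. The cause of these changes was not tested.

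Leaving out each library in turn gave 0 to 4 members in male cycling cells (4, and 55 of all genes, without male RD replicate 2), 0 to 3 in female cycling cells (3, and 607 of all genes, without female HFD replicate 2), 0 to 1 in the cycling diet by sex test (1, with 141 or 5 of all genes, without male RD replicate 2 or female HFD replicate 3), 0 to 1 in female resting cells and in the resting diet by sex test (1, with 505 and 25 of all genes, without female HFD replicate 2), and 0 to 1 in male LC-like cells (1, with 3 to 31 of all genes, without any library but male RD replicate 3). The difference of the summed members between the diets, which no test called, changed sign in all 8 sums. It ran from -69.9 to 493 CPM in male and -11.8 to 182 CPM in female cycling cells, from -73.3 to 135 and -18.0 to 3.34 CPM in resting cells, from -40.5 to 549 and -1.87 to 28.4 CPM in LC-like cells and from -30.3 to 569 and -95.5 to 208 CPM in T cell-like cells. The difference in the share of cycling cells ran from -3.98 to -1.22 percentage points in males and from 1.05 to 4.02 in females. The log2 difference of Hist3h2a then ran from 0.64 to 0.91 and that of Hist1h1e in LC-like cells from 1.03 to 1.46.

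Samples of the same number and sex correlated between -0.169 and 0.295, and in no class were all 3 above 0.1. So few pairs cannot show whether libraries of the same number were handled together. With the replicate block, Hist3h2a was at 0.75 (edgeR adjusted p = 0.0494) and Hist1h1e at 1.21 (edgeR adjusted p = 0.00219). All genes called then fell from 273 to 21 in female cycling and from 285 to 17 in female resting cells, and rose from 99 to 171 in female LC-like cells. Depth limits the T cell-like sums, where 3 UMIs of a library stand for 7.32 to 59.7 CPM.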

Other observations

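Members that end near the loop held 18.1% of the summed level in the median male migratory-like library (10.8 to 23.8%). In the female one they held 3.68% (1.93 to 7.42%). The migratory-like class was made up of different clusters in the sexes, as given above, so these shares are not of like cells. By the rule for single cells, 13.2 to 19.4% of the male and 3.96 to 11.5% of the female migratory-like cells of a library were cycling. A male cluster of 1840 cells that no marker list named had Hist1h4i among its 10 leading genes beside the mitotic genes Ube2c and Plk1, and held 1372 CPM (1082 to 1564). It entered no comparison.

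The genes whose levels followed the summed members most closely over 24 points (cell classes in libraries, which share libraries and depth) were Hmgb2 (r = 0.942), Hnrnpk (0.919), Stmn1 (0.916), Hmgn2 (0.906) and Lsm5 (0.905) among 7505 genes in males. In females the first 4 were Cks1b (0.976), Nucks1 (0.974), Prc1 (0.973) and Hmgb1 (0.971) among 8614 genes.

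Some members went against the sex difference of the rest. In cycling cells Hist1h2an, Hist1h2ag, Hist1h2af and Hist1h2bk stood at 0.56, 0.82, 0.95 and 0.97 times the female level in males, and in resting cells 7 of 59 members were not higher in males, with Hist4h4 lowest at 0.48 times. These were named after their values had been seen.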
